A study of Mus musculus with 12 samples.

Results

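The genes described here are 39 genes of cell proliferation, listed by symbol, out of 31053 genes counted in every library. The rule that takes their rows uses no measured value, but the genes were chosen with earlier results of these data known. All 39 were found in the count matrices, and their UMIs (unique molecular identifiers, each marking 1 captured RNA molecule) were summed in the nuclei of 12 mouse lungs. By role, 5 act in DNA replication, 4 are mitotic cyclins or their kinase Cdk1, 5 are mitotic or checkpoint kinases, 5 sit at the centromere and kinetochore, 6 shape chromosomes, 7 build the spindle and 7 work at the spindle midzone and in cytokinesis. As the list was drawn up, a nucleus with at least 3 UMIs over the 39 genes counts as positive.

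C57BL/6J mice, 7 weeks old, were instilled through the trachea with PBS (phosphate-buffered saline) or with bleomycin, an antitumour agent whose toxicity scars the lung. From day 5 they were given NVP-BHG712, an inhibitor of the receptor tyrosine kinase EphB4, or vehicle by mouth each day for 5 days, and lungs were taken at day 14. The 4 groups of 3 libraries were PBS + vehicle, PBS + NVP, bleomycin + vehicle and bleomycin + NVP, and all were single-nucleus libraries from snap-frozen lung. The mice's sex was not given in the sources used here, NVP-BHG712 acts on the whole animal, and 3 lungs per group limit what any test can show.

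Cells that divide switch on their genes in waves. Replication genes, such as the MCM helicase subunits, are transcribed around S phase, and mitotic genes, such as cyclin B, kinetochore proteins and spindle motors, are transcribed later and peak before division. In adult lung few cells divide at rest, alveolar macrophages renew themselves locally, and after injury capillary endothelium, alveolar type II cells and fibroblasts can re-enter the cycle.

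Many cell cycle promoters carry a CHR (cell cycle homology region) element read by the DREAM and MuvB complexes, with CCAAT boxes bound by NF-Y nearby, while replication genes carry E2F sites. The 200 bases before the RefSeq start (GRCm38.p6) were searched on both strands for the CHR letters TTTGAA and TTTAAA, for CCAAT, and for the E2F letters TTTCCCGC, TTTCGCGC, TTTGCCGC and TTTGGCGC. Of the 39 genes 34 were matched, and Mcm4, Ccna2, Incenp, Smc4 and Tpx2 were not. A CHR was found in 14 of 34 (41.2%) against 20.04% of 32851 mouse promoters, a CCAAT box in 25 (73.5%) against 29.3%, an E2F site in 4 (11.8%) against 1.58%, and a CHR together with a CCAAT box in 12 against 5.88% of all promoters. In 7 windows none of the motifs was found, and matches of different motifs did not overlap in any of the 34. The stretches below belong to 6 genes whose values carry the results that follow, written 5′ to 3′ on the gene's own strand with the motif letters in capitals: the general proliferation markers Mki67 (chr7:135716380-135716579, minus strand) and Top2a (chr11:99024190-99024389, minus), the kinase gene Ttk (chr9:83834489-83834688, plus), the condensin genes Ncapg (chr5:45669725-45669924, plus) and Ncapg2 (chr12:116405236-116405435, plus), and Diaph3 (chr14:87141225-87141424, minus).
Mki67: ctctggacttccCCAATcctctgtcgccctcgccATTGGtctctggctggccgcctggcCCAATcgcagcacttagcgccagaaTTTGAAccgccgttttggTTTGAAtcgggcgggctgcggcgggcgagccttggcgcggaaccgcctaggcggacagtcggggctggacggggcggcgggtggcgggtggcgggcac
Top2a: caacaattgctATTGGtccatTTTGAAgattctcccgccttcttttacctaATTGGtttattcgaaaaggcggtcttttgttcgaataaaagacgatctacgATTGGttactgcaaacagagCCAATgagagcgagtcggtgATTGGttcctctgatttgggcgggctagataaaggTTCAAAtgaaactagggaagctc
Ttk: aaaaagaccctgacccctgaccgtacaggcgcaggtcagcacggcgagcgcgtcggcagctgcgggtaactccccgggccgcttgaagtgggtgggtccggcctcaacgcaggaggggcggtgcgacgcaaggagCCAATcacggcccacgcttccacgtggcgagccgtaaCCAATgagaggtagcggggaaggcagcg
Ncapg: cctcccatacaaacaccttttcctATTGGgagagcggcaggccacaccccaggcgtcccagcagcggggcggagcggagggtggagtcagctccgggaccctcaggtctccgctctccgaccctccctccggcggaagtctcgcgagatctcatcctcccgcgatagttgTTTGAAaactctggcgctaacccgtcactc
Ncapg2: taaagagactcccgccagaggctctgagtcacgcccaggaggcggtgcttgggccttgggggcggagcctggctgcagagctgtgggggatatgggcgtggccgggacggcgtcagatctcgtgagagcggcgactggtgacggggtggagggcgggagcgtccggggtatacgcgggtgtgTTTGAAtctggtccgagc
Diaph3: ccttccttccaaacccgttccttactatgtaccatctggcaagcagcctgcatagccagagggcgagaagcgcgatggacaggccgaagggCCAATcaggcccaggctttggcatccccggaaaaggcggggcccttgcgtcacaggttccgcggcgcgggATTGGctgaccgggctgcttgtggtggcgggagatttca
The Mki67 and Top2a stretches each held 2 CHR matches, with 3 and 5 CCAAT boxes, those of Ncapg and Ncapg2 held 1 CHR each, and those of Ttk and Diaph3 held CCAAT boxes without a CHR. A match is a description of letters and not evidence of binding.

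After filtering, 44611 nuclei were kept of 49163 barcodes, with 1168 to 11867 nuclei and a median of 1073 to 5268 UMIs per nucleus in a library. Because depth differed within and between groups, shares of positive nuclei were compared after each nucleus was thinned at random to 1000 UMIs. The bleomycin + vehicle libraries stood apart in mitochondrial UMIs, with medians of 2.56%, 1.32% and 0.668% against at most 0.0496% in the other 9, and replicate 1 of that group lost 27.0% of its barcodes to the mitochondrial limit. No run or batch label was shared between bleomycin + vehicle, bleomycin + NVP and the PBS groups, so for every bleomycin comparison run and treatment cannot be told apart. The deposited barcodes reached 13583 in 1 library where the labels give about 4000 nuclei loaded, and 324 barcode sequences occurred in more than 1 library. Beyond the run or batch, the labels say only that each library is 1 sample of its group. The p-values below thus measure the spread between these lungs, in which lung and run are not told apart.

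The 39 genes gave 40202 UMIs in kept nuclei, and 53.6% of them came from 2 genes. Smc4, a core subunit of condensin, gave 12197 UMIs and Diaph3, a formin that nucleates actin filaments, gave 9351. At the other end, Ccnb1 (cyclin B1) gave 23 UMIs, Hmmr (a spindle-associated hyaluronan receptor) 60, Rrm2 (ribonucleotide reductase subunit) 67 and Cdk1, the kinase that drives mitotic entry, 74. These totals set how precisely each gene could be measured.

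Nuclei holding 1 gene of a cycling nucleus should hold others as well, and this was checked for each gene. A set of 10 genes that non-dividing nuclei can also express (Mcm3, Mcm4, Mcm5, Mcm6, Smc2, Smc4, Ncapg2, Incenp, Cit and Diaph3) was set apart as broad, leaving 29 restricted genes with 10349 UMIs. The broad genes gave 74.3% of all UMIs over the list. The share counted was that of nuclei with at least 3 UMIs summed over the other restricted genes, which 1 gene alone could supply. Among nuclei with an Ncapg UMI it was 49.5%. It was 47.0% for Ttk, which encodes the checkpoint kinase MPS1, and 44.4% for Ndc80, the microtubule-binding kinetochore protein. For Top2a, the topoisomerase that untangles sister chromatids, it was 39.8%, and for Mki67, which encodes the Ki-67 antigen, 38.5%. At the low end stood Smc4 at 4.06%, Plk1, the polo-like kinase, at 5.13%, Ccnb2 (cyclin B2) at 6.23% and Diaph3 at 7.53%. The median was 26.2% over the restricted genes and 9.66% over the broad ones. The split was made with earlier results of these data known. The share also counts UMIs of restricted genes only, so the medians are no independent check of the split. The values of Plk1 and Ccnb2 rest on 6 of 117 and 17 of 273 nuclei, and those of the broad genes Smc2 (9.79%) and Mcm5 (16.8%) on 114 of 1165 and 38 of 226, and their differences were not tested.

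The label of the list was checked against the nuclei it marks. With the rule of at least 3 UMIs over all 39 genes and no thinning, 4292 nuclei (9.62%) were positive, and 1733 of them (40.4%) were alveolar type I, thin gas-exchange cells that are terminally differentiated. Positive alveolar type I nuclei had a median of 8638 UMIs against 4096 in the others of that class, and the class stood high in Smc4 and Diaph3. A stricter criterion, at least 3 different restricted genes in 1 nucleus, marked 345 nuclei (0.773%, 95% Wilson interval 0.696% to 0.859%, counting error only). Of these, 131 were alveolar macrophages, 49 general capillary, 38 alveolar type II, 31 interstitial macrophages or monocytes, 26 fibroblasts and 13 alveolar type I. In alveolar type I that is 13 of 6383 nuclei (0.204%, interval 0.119% to 0.348%), at a median depth of 10178 UMIs in those 13, against 3.36% of 3894 alveolar macrophages at 6451 UMIs. At least 5 restricted genes were held by 138 nuclei and at least 10 by 51. No nucleus held more than 23, a number reached in PBS + NVP and in bleomycin + vehicle. Among the 138 were 44 alveolar macrophages, 30 general capillary and 16 alveolar type II nuclei. A further 14 were interstitial macrophages or monocytes, 8 fibroblasts and 1 alveolar type I. The restricted genes Bub1b, Anln and Kif23 were also high in other alveolar macrophages, as given below, and their part in the macrophage counts was not tested.

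Genes of the cycle that are not on the list moved with the stricter criterion. In the 345 nuclei, 40 of 43 other S phase genes stood over 2-fold higher than in the remaining nuclei weighted to the same classes, with a median ratio of 7.43, and 30 of 40 other mitotic genes did so, with a median ratio of 8.01. Of 30 genes that control entry into or exit from the cycle, such as cyclins D and CDK inhibitors, 13 did, with a median ratio of 1.52. The criterion of 3 different restricted genes thus marked nuclei high in other genes of the cycle, while the unthinned 39-gene sum marked alveolar type I nuclei most often. These ratios, of UMIs per 1000000, are a description.

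**Figure D1:**
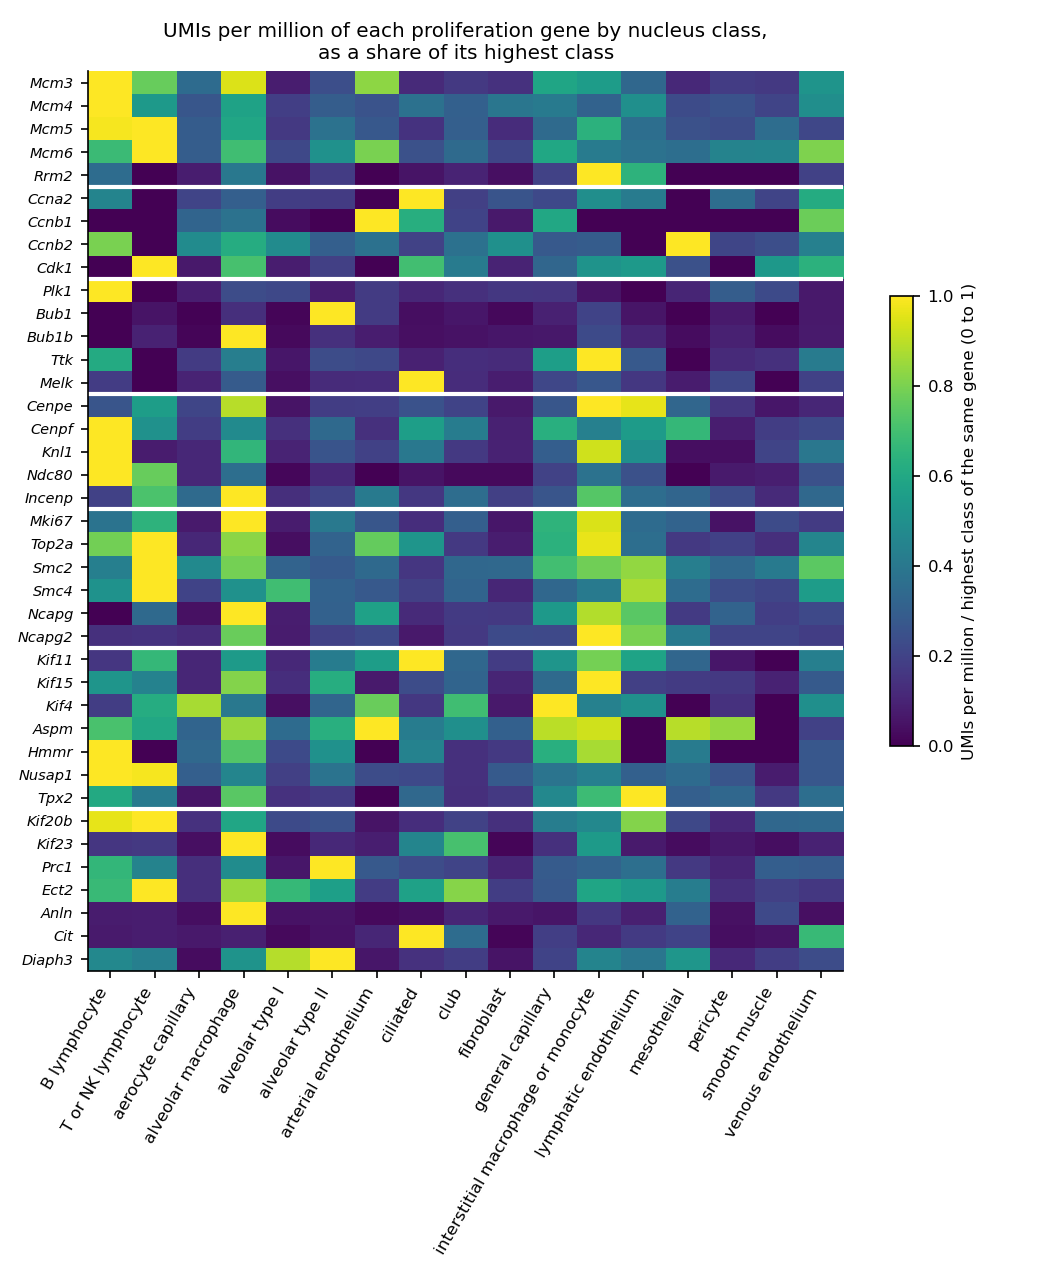
Each row is 1 proliferation gene, grouped by role with white lines between roles, and each column 1 class of nuclei. Colour gives UPM (UMIs per 1000000 UMIs of a class) divided by the highest class of the same gene (0 to 1, linear), so that rows cannot be compared in level. Bub1 is bright in alveolar type II, Bub1b, Anln and Kif23 in alveolar macrophages, and Cit in ciliated nuclei, while Mki67, Top2a and Ncapg are spread over macrophages, lymphocytes and capillary endothelium.

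Several genes were concentrated in 1 class apart from the nuclei that met the stricter criterion. For levels and folds here and in the next paragraph, a nucleus was left out if its other restricted genes, plus the gene read, numbered at least 3. Counts of libraries above the rest were taken over all nuclei. So read, Bub1, the kinetochore kinase of the spindle checkpoint, stood at 18.6 UPM (UMIs per 1000000 UMIs of the class) in alveolar type II, the surfactant-producing epithelium. In the rest it stood at 0.413, so that alveolar type II was 45.0-fold higher, and above the rest in 10 of 12 libraries. Bub1b, which encodes the checkpoint protein BubR1, stood at 26.6 UPM in alveolar macrophages, 18.6-fold over the rest and above it in all 12 libraries. Anln, the actin-binding anillin of the cleavage furrow, stood at 52.0 there (15.7-fold, 12 of 12 libraries) and Kif23, a motor of the central spindle, at 23.3 (8.36-fold, 12 of 12). Alveolar macrophages were thus high in 3 genes of the list in nuclei that did not meet that criterion.

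Ciliated nuclei held Cit, the citron kinase of cytokinesis, at 105 UPM (13.6-fold over the rest, 12 of 12 libraries), and venous endothelium held it at 72.1 (7.18-fold, 11 of 12). Smaller counts put Melk, a kinase of dividing and stem cells, at 5.26 UPM in ciliated nuclei, from 30 UMIs, and Kif11, the motor that separates spindle poles, at 6.68 there, from 38. Prc1, which bundles midzone microtubules, stood at 7.44 in alveolar type II (7.25-fold, 11 of 12 libraries). Diaph3 stood at 121 in alveolar type II and 118 in alveolar type I, each above the rest in all 12 libraries, and at 6.05 in fibroblasts. Smc4 stood at 139 in alveolar type I and 21.2 in fibroblasts.

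None of the 39 genes was overlapped by another listed gene on its own strand, and 5 were overlapped on the other strand. Bub1 (chr2:127801122-127831865, minus strand, GRCm38) lies 7011 bases from Acoxl, a gene on the other strand, and Acoxl stood at 1269 UPM in alveolar type II and 13.7 in the rest. Whether reads of Acoxl were counted to Bub1 was not tested.

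By the 39-gene rule, thinned to 1000 UMIs, the share of positive nuclei was 0.888%, 0.778% and 1.27% in the 3 PBS + vehicle libraries, 0.546%, 1.10% and 0.689% with PBS + NVP, 1.82%, 1.45% and 1.5% with bleomycin + vehicle, and 1.09%, 0.757% and 1.01% with bleomycin + NVP. The 3 bleomycin + vehicle libraries lay above all 9 others. Means ± SD (n = 3) were 0.980% ± 0.260, 0.778% ± 0.287, 1.59% ± 0.202 and 0.951% ± 0.172. Bleomycin + vehicle minus PBS + vehicle was 0.607 percentage points, and bleomycin + NVP minus bleomycin + vehicle was -0.636, both without overlap. With nuclei held to at least 500 UMIs and at most 1% mitochondrial they were 0.621 and -0.297. Alveolar macrophages, the class richest in restricted genes, made up 19.1%, 10.4% and 8.99% of kept nuclei with bleomycin + vehicle, 8.20%, 5.15% and 7.04% with PBS + vehicle and 6.08%, 6.23% and 7.80% with bleomycin + NVP, and the part of this in the shares over all nuclei was not tested. PBS + NVP minus PBS + vehicle was -0.202 and bleomycin + NVP minus PBS + NVP 0.173, both with overlap. Thinning kept nuclei with at least 1000 UMIs only, 6373 of 7533 for PBS + vehicle, 10725 of 11819, 16248 of 20414 and 3734 of 4845 for the other groups in the same order.

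**Figure D2:**
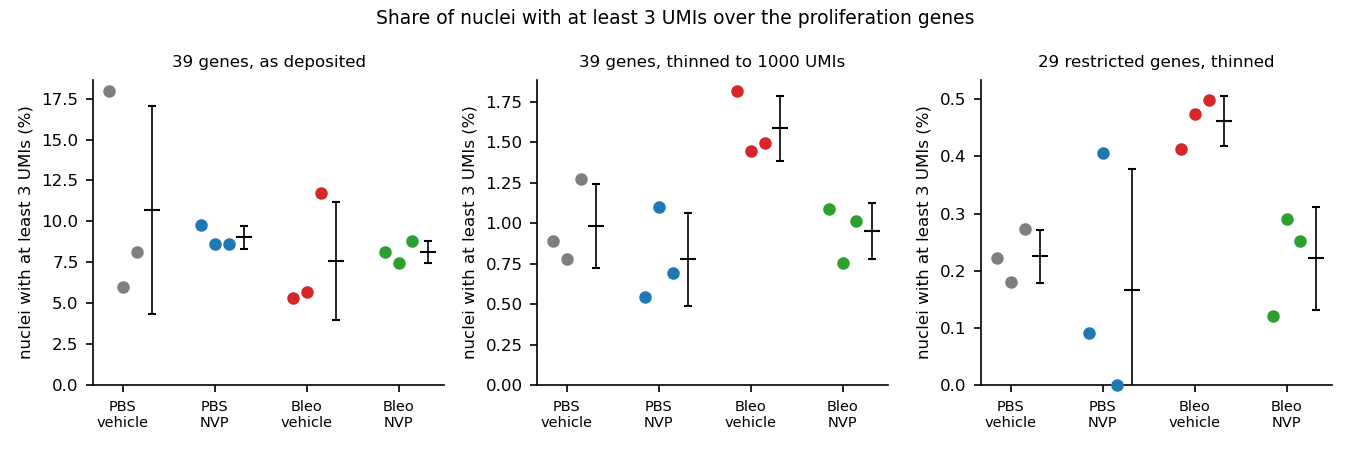
Share of nuclei (%) with at least 3 UMIs over the proliferation genes, 1 point per library, for 39 genes without thinning, 39 genes thinned to 1000 UMIs and 29 restricted genes thinned (Bleo, bleomycin). Black marks show mean ± SD over 3 libraries, and an SD bar that would pass below 0 ends at the axis. Without thinning the groups overlap, and with thinning the 3 bleomycin + vehicle libraries lie at 1.45% to 1.82%, above the rest.

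The unthinned shares went the other way. They averaged 3.13 percentage points lower with bleomycin + vehicle than with PBS + vehicle, and 0.564 higher with bleomycin + NVP than with bleomycin + vehicle, and in both the groups overlapped. The values were 17.9%, 6.01% and 8.15% with PBS + vehicle and 5.33%, 5.67% and 11.7% with bleomycin + vehicle. The library with the highest unthinned share was PBS + vehicle replicate 1, the deepest of the series. With the 29 restricted genes thinned, the direction of the 39-gene rule held, at 0.237 and -0.240 percentage points.

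In general capillary nuclei, the general endothelium of alveolar capillaries, the thinned share was 0 of 46, 7 of 276 (2.54%) and 33 of 1445 (2.28%) with bleomycin + vehicle. It was 1 of 596, 2 of 268 and 0 of 89 (which allows up to 3.37%) with PBS + vehicle, and 0 of 62, 0 of 221 and 0 of 91 with bleomycin + NVP, where counts of 0 allow shares of up to 4.84%, 1.36% and 3.30%. Shares in replicates 2 and 3 of bleomycin + vehicle stood above the 0.168% and 0.746% of PBS + vehicle replicates 1 and 2, but under what the counts of 0 allow in PBS + vehicle replicate 3 and in bleomycin + NVP replicates 1 and 3, where a difference was not detectable at this depth. In replicate 1 of bleomycin + vehicle, with 46 nuclei, the count of 0 allows a share of up to 6.52%. Without thinning, at least 3 different restricted genes were found in 0 of 108, 13 of 584 and 32 of 1670 general capillary nuclei with bleomycin + vehicle, and in 0 of 106, 0 of 265 and 0 of 172 with bleomycin + NVP. Of the 30 general capillary nuclei with at least 5 restricted genes, 29 came from bleomycin + vehicle, which held 2362 of the 5776 nuclei of the class. Bleomycin + NVP held 543 nuclei of the class, with 0 of this kind. Over all classes, nuclei with at least 5 restricted genes numbered 3, 22 and 72 in bleomycin + vehicle replicates 1 to 3, so nuclei pooled over lungs are not replicates.

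Among fibroblasts the thinned share was 8 of 257 (3.11%), 6 of 1037 (0.579%) and 5 of 1926 (0.260%) with bleomycin + vehicle. It was 0 of 790, 0 of 399 and 0 of 355 with PBS + vehicle, which allows up to 0.380%, 0.752% and 0.845%, and 0 of 239, 0 of 433 and 0 of 351 with bleomycin + NVP, which allows up to 1.26%, 0.693% and 0.855%. Only replicate 1 lay above what every empty library allows, so for the other 2 a difference was not detectable at this depth. Alveolar macrophages had shares of 5.05%, 2.25% and 4.05% with PBS + vehicle, and the 3.37%, 1.80% and 2.99% with bleomycin + vehicle overlapped them. Alveolar type I shares, 0.511% to 2.59% with PBS + vehicle and 0.722% to 1.11% with bleomycin + vehicle, overlapped as well.

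Summed over the 29 restricted genes, UPM over all nuclei again placed bleomycin + vehicle highest, without any threshold per nucleus. Values were 65.0, 45.5 and 46.7 with PBS + vehicle, 53.3, 54.9 and 42.7 with PBS + NVP, 85.4, 86.6 and 82.2 with bleomycin + vehicle, and 37.2, 44.8 and 53.3 with bleomycin + NVP. The bleomycin + vehicle libraries stood above all others and close together. General capillary nuclei gave 18.9, 46.5 and 24.9 with PBS + vehicle, 22.3, 63.6 and 58.9 with PBS + NVP, 64.7, 140.4 and 178 with bleomycin + vehicle and 35.3, 10.3 and 34.4 with bleomycin + NVP. Fibroblasts gave 16.8 to 21.3, then 18.1 to 22.0, then 95.6, 41.9 and 43.2, then 13.4 to 24.2 in the same groups. In both classes the bleomycin + vehicle libraries lay above all 9 others, though in general capillary nuclei the lowest, 64.7, was close to the 63.6 of a PBS + NVP library.

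Alveolar type I nuclei, which are terminally differentiated, also had their highest values with bleomycin + vehicle, with 18.0, 24.5 and 22.4 with PBS + vehicle, 21.5, 26.4 and 32.3 with PBS + NVP, 60.9, 47.4 and 42.2 with bleomycin + vehicle and 18.1, 26.0 and 27.9 with bleomycin + NVP. Aerocyte capillary nuclei gave 22.2 to 28, 5.01 to 22.4, 41.9 to 64.6 and 21.0 to 49.9 in the same order, so that the bleomycin groups overlapped. At least 3 different restricted genes were held by 0.204% of alveolar type I and 0.273% of fibroblast nuclei. Alveolar macrophages gave 324, 164 and 256 with PBS + vehicle, 156, 176 and 197 with bleomycin + vehicle and 174, 173 and 239.8 with bleomycin + NVP, which overlap. In interstitial macrophages or monocytes the direction with the inhibitor was the opposite. This class gave 111, 92.6 and 125 with bleomycin + vehicle and 217 and 1025 in replicates 2 and 3 of bleomycin + NVP, without overlap, beside 240.3, 131 and 21.7 with PBS + vehicle and 94.2, 297 and 69.1 with PBS + NVP. At least 3 different restricted genes were held by 3 of 98 (3.06%) and 2 of 31 (6.45%) of its nuclei in those bleomycin + NVP libraries and by 0 of 18 in replicate 1, against 1 of 185, 2 of 292 and 11 of 678 (0.541% to 1.62%) with bleomycin + vehicle.

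**Figure D3:**
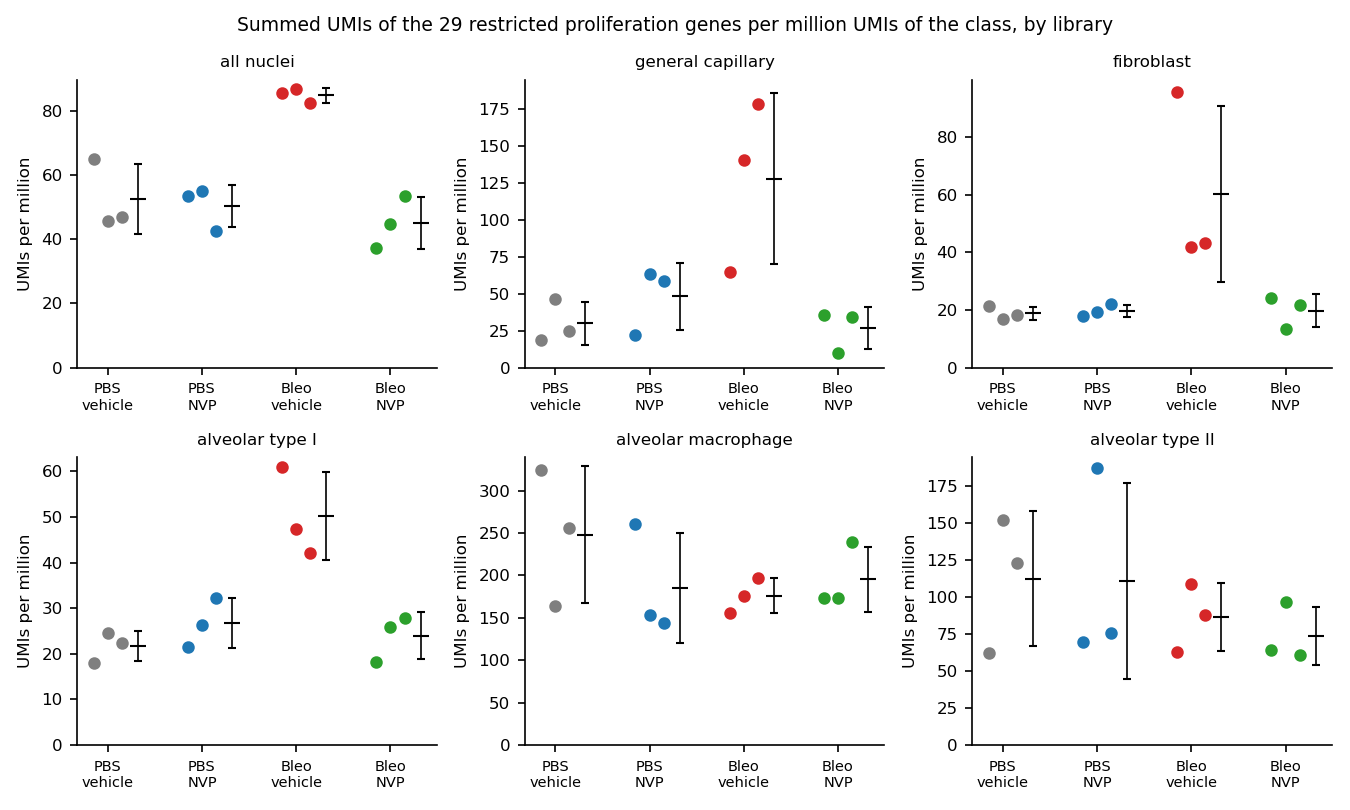
UPM of a class (UMIs per 1000000), summed over the 29 restricted proliferation genes (vertical axis, linear from 0), 1 point per library, with mean ± SD over 3 libraries in black. In all nuclei the bleomycin + vehicle points lie at 82.2 to 86.6 against 37.2 to 65.0 elsewhere, general capillary, fibroblast and alveolar type I nuclei also have their highest points there, and the groups overlap in alveolar macrophages and alveolar type II.

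In whole lung, UMIs of all kept nuclei were summed per library and given as counts per 1000000 (CPM, with TMM library factors). In such sums more nuclei of a class and more RNA per nucleus cannot be told apart. The larger share of alveolar macrophages with bleomycin + vehicle, given above, enters these sums too, and its part was not tested. Of the 39 genes 28 passed the filter on low counts and were tested, all with at least 243 UMIs, and the 11 left out had at most 208.

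Bleomycin + vehicle against PBS + vehicle compared injured and uninjured lungs without the inhibitor, where run and treatment cannot be told apart. None of the 28 tested genes was called at an adjusted p under 0.05 (edgeR quasi-likelihood test, Benjamini-Hochberg over 14438 genes), where 2.56% of all tested genes were called. At an unadjusted p under 0.05 the count was 8, all higher, where 11% of all tested genes were higher at that threshold, and DESeq2 called 3 (Ncapg2, Diaph3 and Nusap1), where it called 6.88%. The log2 change was positive in 24 of 28, with a median of 0.64 against 0.01 over all tested genes. Over all 39 genes, the 3 bleomycin + vehicle libraries lay wholly above the 3 PBS + vehicle libraries for 21 and wholly below for 1 (Bub1), against 10.1% and 5.7% of 26154 genes. The count of 21 fell to 10 when nuclei were held to 500 or more UMIs and no more than 1% mitochondrial.

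Ncapg2, a subunit of condensin II, stood at 6.97, 6.78 and 5.08 CPM with PBS + vehicle and 14.5, 11.6 and 9.16 with bleomycin + vehicle, with no overlap, and had a log2 change of 0.86 ± 0.22 (SE, adjusted p = 0.0620 by edgeR). In that order of groups, Mki67 stood at 2.32, 0.847 and 2.12 against 4.76, 4.55 and 3.53, again without overlap, and had a log2 change of 1.22 ± 0.49 (SE, adjusted p = 0.206 by edgeR). Top2a stood at 3.10, 0.847 and 1.69 against 3.25, 4.85 and 5.03, where the lowest bleomycin library lay just above the highest PBS library, and had a log2 change of 1.15 ± 0.54 (SE, adjusted p = 0.277 by edgeR). Ncapg, the condensin I subunit, was too scarce to test but did not overlap, at 0.652, 0.141 and 0.212 against 2.50, 1.29 and 1.21. Smc2 and Smc4, the condensin ATPases, had log2 changes of 0.16 and -0.13.

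Spindle genes had the largest median among the roles, a log2 change of 1.14 over the 5 tested, all positive. Nusap1, which anchors spindle microtubules to chromatin, stood at 1.67, 0.988 and 1.27 against 8.76, 3.41 and 2.62, and had a log2 change of 1.75 ± 0.55 (SE, adjusted p = 0.117 by edgeR). Replicate 1 of bleomycin + vehicle gave the highest value and the groups did not overlap. Kif15, a motor that helps keep spindles bipolar, stood at 2.36, 0.988 and 1.48 against 4.76, 5.31 and 4.15, without overlap, and had a log2 change of 1.46 ± 0.50 (SE, adjusted p = 0.145 by edgeR). Tpx2, the activator of Aurora A, did not overlap either, with a log2 change of 1.14, while Kif11 (0.67) and the chromokinesin Kif4 (0.61) overlapped. Aspm, a spindle pole protein, and Hmmr were not tested and did not overlap, with Aspm at 1.25, 1.44 and 0.994 CPM after bleomycin + vehicle against at most 0.530 after PBS + vehicle, and Hmmr at 0.501, 0.834 and 0.423 against at most 0.282.

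At the centromere, all 4 tested genes were positive with a median of 1.11. Cenpe, the kinetochore motor, stood at 1.71, 1.27 and 0.424 against 3.00, 3.87 and 2.31, with no overlap, and had a log2 change of 1.26 ± 0.49 (SE, adjusted p = 0.189 by edgeR). Knl1, the scaffold of the outer kinetochore, did not overlap at 1.13 on the log2 scale. Cenpf (1.09), a kinetochore protein, and Incenp (0.72), the anchor of Aurora B, overlapped, as did Ndc80, which was not tested and gave 0.501, 2.58 and 1.67 CPM with bleomycin + vehicle.

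Replication genes had a smaller median log2 change, 0.40 over 4 tested. Of the MCM helicase subunits, Mcm3 stood at 3.22, 3.25 and 3.18 against 5.01, 4.70 and 3.93, and Mcm5 and Mcm6 also did not overlap, while Mcm4 had a log2 change of -0.06. Rrm2, not tested, gave 0.0815, 0.141 and 0 against 1.00, 0.455 and 0.656 without overlap. Of the cyclins, Ccna2 (cyclin A2) did not overlap, at 0.408, 0.141 and 0.424 against 1.25, 1.29 and 0.677, while Ccnb2 (0.34, the only one tested), Ccnb1 and Cdk1 stayed within overlapping ranges or at counts of 0.

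Kinases were mixed. Bub1 was the 1 gene wholly lower with bleomycin + vehicle, at 2.93, 5.22 and 2.12 against 1.25, 1.52 and 1.82, and had a log2 change of -1.11 ± 0.53 (SE, adjusted p = 0.289 by edgeR). Bub1b (0.51) and the untested Ttk, at 0.163, 0.424 and 0.847 against 2.25, 0.910 and 1.42, were higher without overlap, as was Melk, and Plk1 overlapped. Among the 7 midzone and cytokinesis genes the median was 0.61. Diaph3 stood at 42.3, 45.5 and 54.7 against 96.6, 71.1 and 75.2, and had a log2 change of 0.77 ± 0.23 (SE, adjusted p = 0.102 by edgeR), and Kif20b, a midzone motor, did not overlap either. Prc1, Ect2 (the exchange factor that activates RhoA at the furrow), Anln, Cit and Kif23 had log2 changes of 0.62, 0.61, 0.33, 0.15 and -0.09, all with overlap.

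**Figure D4:**
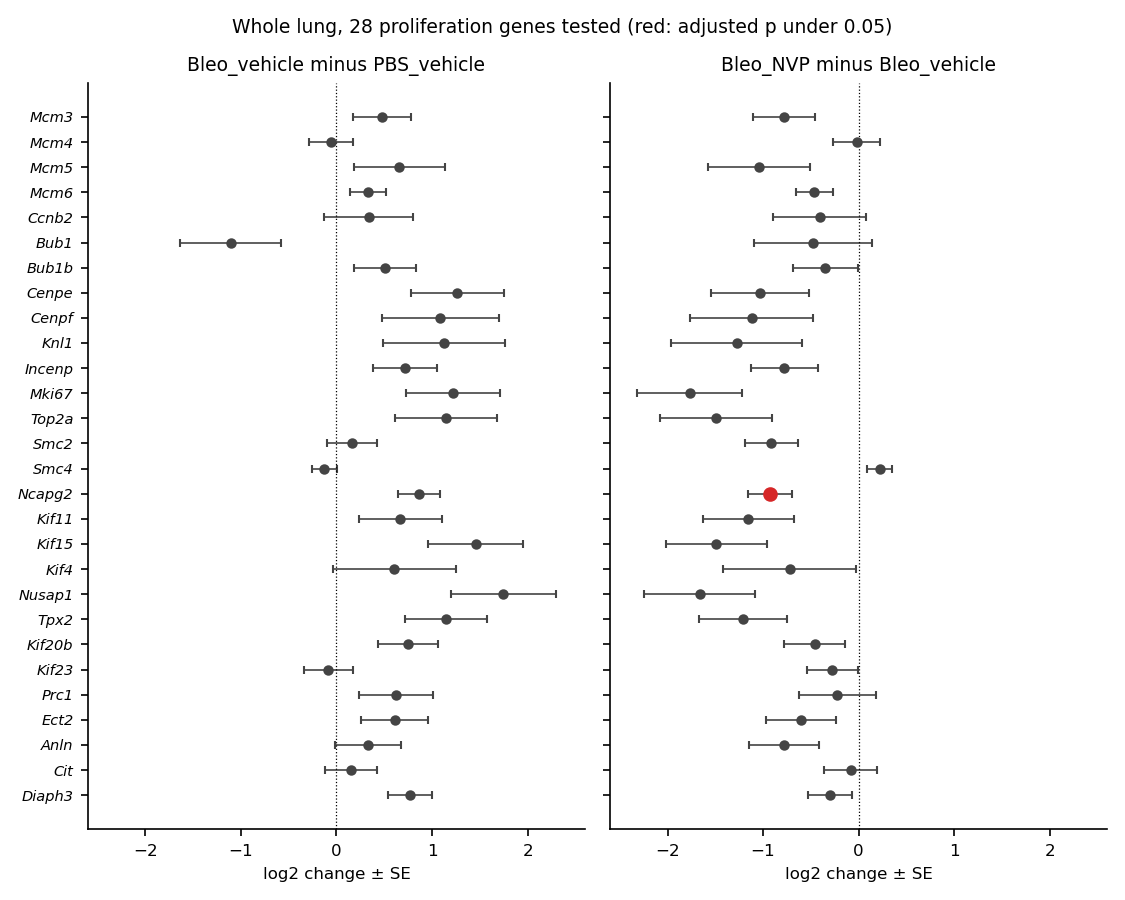
Log2 change ± SE (horizontal axis) of the 28 tested proliferation genes in whole lung, in the order of their roles, for bleomycin + vehicle minus PBS + vehicle (left) and bleomycin + NVP minus bleomycin + vehicle (right). The panels share the bleomycin + vehicle libraries. Points lie right of 0 for 24 genes on the left and left of 0 for 27 on the right, and the 1 red point, Ncapg2 at -0.93, has an adjusted p under 0.05.

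Bleomycin + NVP against bleomycin + vehicle compared injured lungs with and without the inhibitor, where run and treatment cannot be told apart. It shares the bleomycin + vehicle libraries with the comparison above, so high values there enter both with opposite sign. Here 1 of the 28 tested genes was called, where 5.59% of all tested genes were, and 11 had an unadjusted p under 0.05, all lower, where 14.4% of all tested genes were lower at that threshold. DESeq2 called 3 (Ncapg2, Mki67 and Smc2), where it called 11.9% of all tested genes. The log2 change was negative in 27 of 28, with a median of -0.78 against -0.05 over all tested genes. Over all 39 genes, 16 lay wholly lower with bleomycin + NVP and 1 (Smc4) wholly higher, against 13.6% and 9.27% of 26154 genes.

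The called gene was Ncapg2, at 6.23, 6.59 and 5.39 CPM with bleomycin + NVP against 14.5, 11.6 and 9.16, and had a log2 change of -0.93 ± 0.23 (SE, adjusted p = 0.0397 by edgeR). Its call was lost, at adjusted p of 0.0532 to 0.155, when any of 8 libraries was left out (PBS + vehicle 2, PBS + NVP 2 or 3, bleomycin + vehicle 1 or 2, or any bleomycin + NVP library), and the log2 change then stayed negative. It was also lost without the filter on low counts (0.0742), with only the compared libraries in the fit (0.0874) and at the stricter limits on nuclei (0.0566, all adjusted p by edgeR). Mki67 gave 2.08, 0.899 and 0.962 against 4.76, 4.55 and 3.53, with no overlap, and had a log2 change of -1.77 ± 0.55 (SE, adjusted p = 0.0759 by edgeR). Top2a gave 0.890, 0.749 and 3.08 against 3.25, 4.85 and 5.03, also without overlap, and had a log2 change of -1.49 ± 0.59 (SE, adjusted p = 0.141 by edgeR). Smc2 gave 3.26, 6.89 and 5.58 against 11.5, 9.93 and 9.33, and had a log2 change of -0.92 ± 0.28 (SE, adjusted p = 0.0714 by edgeR), while Smc4 was wholly higher, at 77.1, 75.8 and 87.9 against 66.3, 67.4 and 72.3, but not when scaled by library totals alone.

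By role the medians were -1.21 for spindle genes, -1.07 at the centromere, -0.93 for chromosome genes, -0.62 for replication, -0.41 for the 2 tested kinases and for Ccnb2, and -0.30 for midzone and cytokinesis. Besides the chromosome genes above and Ncapg, the genes wholly lower were Mcm3, Mcm6, Rrm2, Ttk, Cenpf, Knl1, Kif11, Kif15, Nusap1, Tpx2 and Anln. Nusap1 gave 1.19, 1.20 and 1.92 against 8.76, 3.41 and 2.62, and Kif15 gave 0.890, 1.5 and 2.50 against 4.76, 5.31 and 4.15. Ttk gave 0.593, 0 and 0.385 against 2.25, 0.910 and 1.42, and Ncapg 0.593, 0.300 and 0.962 against 2.50, 1.29 and 1.21. Spindle and centromere genes, with the largest positive medians in the comparison above, had the largest negative ones here, with the bleomycin + vehicle libraries in both.

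In uninjured lung the inhibitor, PBS + NVP against PBS + vehicle, gave no call among the 28 genes (edgeR) and none at an unadjusted p under 0.05, where 0% of 14438 genes were called and 0.298% passed unadjusted. The median log2 change was -0.17, with 20 of 28 negative. Only Mcm4 was wholly lower, at 3.51, 2.72 and 3.59 against 4.44, 4.52 and 4.02, where 1.59% of genes were, and none was wholly higher, where 1.61% were. With library totals alone no gene of the list was wholly lower. Mki67 gave 0.713, 2.59 and 1.37 with PBS + NVP and a log2 change of -0.32 ± 0.52 (SE), and Top2a gave 1.07, 2.59 and 1.20 and -0.37 ± 0.57.

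Bleomycin + NVP against PBS + NVP, injured against uninjured lungs under the inhibitor, also gave no call (edgeR, 0% of all tested genes). None had an unadjusted p under 0.05 (edgeR), where 2.78% of all tested genes did. The median log2 change was 0.03, with 15 of 28 positive. Ncapg was wholly higher, at 0.593, 0.300 and 0.962 against 0.297, 0 and 0.171, where 3.69% of genes were, and Ndc80 wholly lower, where 4.45% were. With library totals alone 0 were wholly higher and 3 wholly lower. The change was -0.23 ± 0.59 for Mki67 and 0.02 ± 0.62 for Top2a, both on the log2 scale with SE. The difference between the 2 comparisons of bleomycin with PBS was tested as an interaction. No gene of the list was called, where 0.353% of all tested genes were, and 1 had an unadjusted p under 0.05, where 14.3% of all tested genes did (Kif15, log2 interaction -1.91 ± 0.74, edgeR adjusted p = 0.290). The interaction was negative in 23 of 28, with a median of -0.66 against -0.05 over all tested genes. For Mki67 it was -1.45 ± 0.76 and for Top2a -1.13 ± 0.82, neither past the threshold.

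Within classes few genes had the counts for a test, 7 in fibroblasts and in alveolar macrophages, 5 in alveolar type I, 4 in general capillary, 3 in alveolar type II, and 2 in interstitial macrophages or monocytes and in T or NK lymphocytes. Each class was tested across libraries on its own sums. Neither comparison without the bleomycin + vehicle libraries gave a call in any class, where 0% of all tested genes were called apart from 0.0446% in T or NK lymphocytes for bleomycin + NVP against PBS + NVP.

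In fibroblasts, the collagen-producing cells of the scar, Diaph3 was the called gene. It stood at 2.6, 2.48 and 3.20 CPM with PBS + vehicle, 3.91, 2.85 and 4.90 with PBS + NVP, 34.4, 22.0 and 10.0 with bleomycin + vehicle and 0, 4.91 and 1.95 with bleomycin + NVP. The bleomycin + vehicle libraries lay above all 9 others. Against PBS + vehicle the gene rose, with a log2 change of 2.90 ± 0.57 (SE, adjusted p = 0.00946 by edgeR), where 5.54% of 10428 tested genes were called, and with the inhibitor it fell, with a log2 change of -2.90 ± 0.61 (SE, adjusted p = 0.0113 by edgeR), where 8.28% were. The rise kept its call in all 12 fits with 1 library left out, and the fall lost it without bleomycin + NVP replicate 3 (adjusted p = 0.0653) or with only the compared libraries in the fit (0.0565). In UMIs, Diaph3 gave 14, 5 and 5 against 27, 69 and 91 in the vehicle groups.

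The other 6 fibroblast genes had no call, with log2 changes in the comparison of the vehicle groups of -0.04 for Mcm4, 0.13 for Ncapg2, 0.55 for Smc2, 0.72 for Mcm6, 0.73 for Smc4 and 1.64 for Anln. The median over 7 genes was 0.72, and with the inhibitor it was -1.11, all 7 negative. Mki67 did not pass the filter, with UMIs of 1, 0 and 0 with PBS + vehicle, 0, 2 and 0 with PBS + NVP, 5, 4 and 8 with bleomycin + vehicle and 0, 0 and 0 with bleomycin + NVP. Top2a gave 0, 0 and 0, then 0, 3 and 1, then 3, 5 and 19, then 2, 0 and 1 in the same order. All UMIs of the class numbered 8753065, 11162804, 12707790 and 4793996 in these groups, and the counts of both genes are not scaled to them. With no filter 4 genes were called between the vehicle groups (Diaph3, Top2a, Kif4 and Cit), where 6.6% of the 22151 genes of that fit were.

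In general capillary nuclei none of the 4 tested genes was called, where 2.81% of 6328 tested genes were called against PBS + vehicle and 4.16% with the inhibitor. In UMIs, Mki67 gave 1, 0 and 0 with PBS + vehicle, 1, 3 and 2 with PBS + NVP, 0, 15 and 51 with bleomycin + vehicle and 0, 0 and 0 with bleomycin + NVP. Top2a gave 5, 2 and 0 with PBS + vehicle, 0, 4 and 0 with PBS + NVP, 0, 9 and 72 with bleomycin + vehicle and 0, 0 and 1 with bleomycin + NVP. Most counts of both genes came from replicates 2 and 3 of bleomycin + vehicle, with none in replicate 1, which held 108 nuclei of this class. All UMIs of the class numbered 3091654, 3899208, 4804754 and 947322 in the groups in the same order, and these counts are not scaled to them. Diaph3, at 2.21, 28.4 and 8.55 CPM and 0, 55.7 and 71.3 with overlap, had a log2 change of 2.25 ± 0.83 (SE, adjusted p = 0.198 by edgeR) and with the inhibitor a log2 change of -3.02 ± 1.03 (SE, adjusted p = 0.119 by edgeR). Without the filter on low counts, which drops genes seen in few libraries, 9 genes were called as higher against PBS + vehicle (Anln, Bub1, Bub1b, Diaph3, Kif11, Kif15, Mki67, Ncapg and Ttk), where 2.52% of the 19693 genes of that fit were called as higher, and with the inhibitor 2 were called (Diaph3 and Mki67), where 3.39% were. Most UMIs of these genes in bleomycin + vehicle came from replicate 3, which held 1670 nuclei of the class. In replicates 1 to 3, Ttk gave 0, 0 and 23 UMIs, Kif11 0, 1 and 40 and Bub1 0, 2 and 19. Bub1b gave 1, 2 and 20, Ncapg 1, 2 and 16, Anln 1, 8 and 29, Kif15 0, 7 and 34 and Diaph3 0, 51 and 247.

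In alveolar macrophages a cytokinesis gene was lower with bleomycin + vehicle than with PBS + vehicle. Anln stood at 93.6, 73.0 and 61.6 CPM with PBS + vehicle, 91.6, 39.2 and 38.7 with PBS + NVP, 27.0, 28.2 and 38.5 with bleomycin + vehicle and 46.0, 48.2 and 50.7 with bleomycin + NVP. All 3 bleomycin + vehicle libraries lay below the other 9, the closest pair being 38.5 and 38.7, and against PBS + vehicle Anln fell, with a log2 change of -1.29 ± 0.32 (SE, adjusted p = 0.0190 by edgeR), where 7.94% of 6389 tested genes were called. The call was lost without PBS + vehicle replicate 1 (adjusted p = 0.144) or bleomycin + vehicle replicate 2 (0.0880), and in clusters built without batch correction (0.192) or with cell cycle genes kept (0.0698). Kif23 stood at 38.5, 33.9 and 69.3 against 8.98, 21.8 and 21.2, without overlap, with a log2 change of -1.26 ± 0.41 (SE, adjusted p = 0.0665 by edgeR). Bub1b, the other macrophage gene of the list, gave 28.7, 33.9 and 30.8 against 25.2, 28.2 and 34.6, with a log2 change of -0.03 ± 0.30. With the inhibitor none of the 7 genes was called, where 6.25% of tested genes were. Mki67 and Top2a, not tested here, gave most of their UMIs in PBS + vehicle replicate 1 and bleomycin + vehicle replicate 3. Mki67 gave 35, 1 and 2 with PBS + vehicle, 16, 5 and 1 with PBS + NVP, 11, 8 and 33 with bleomycin + vehicle and 2, 2 and 2 with bleomycin + NVP. Top2a gave 43, 0 and 0, then 22, 1 and 4, then 3, 7 and 38, then 1, 1 and 6 in the same order. All UMIs of the class numbered 2893969, 3838539, 5784827 and 913047 in these groups, and the counts of both genes are not scaled to them.

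In alveolar type II nuclei Bub1 fell. It stood at 23.3, 86.7 and 27.3 CPM with PBS + vehicle, 39, 19.9 and 19.2 with PBS + NVP, 0, 6.40 and 6.60 with bleomycin + vehicle and 10.1, 19.7 and 0 with bleomycin + NVP. Bleomycin + vehicle lay wholly below PBS + vehicle, with a log2 change of -2.82 ± 0.67 (SE, adjusted p = 0.0273 by edgeR), where 4.02% of 6145 tested genes were called. The call was lost without PBS + vehicle replicate 2 (adjusted p = 0.134) or 3 (0.0511) or bleomycin + vehicle replicate 2 (0.109) or 3 (0.0524), and with only the compared libraries in the fit (0.0672). The neighbour Acoxl was lower in the same libraries, at 2384, 1615 and 980 CPM with PBS + vehicle, 55.6, 132 and 485 with bleomycin + vehicle and 867, 1459 and 1539 with bleomycin + NVP, and its part in the counts of Bub1 was not tested. Smc4 and Diaph3 had log2 changes of 0.08 and 0.26. With the inhibitor none of the 3 was called, where 5.08% of tested genes were. In UMIs, untested, Mki67 gave 6, 1 and 6 with PBS + vehicle, 2, 2 and 1 with PBS + NVP, 1, 6 and 23 with bleomycin + vehicle and 2, 0 and 0 with bleomycin + NVP. Top2a gave 3, 1 and 0, then 2, 2 and 0, then 3, 7 and 33, then 0, 0 and 0 in the same order. All UMIs of the class numbered 2961213, 3337307, 6683055 and 1109411 in these groups, and the counts of both genes are not scaled to them.

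In alveolar type I nuclei the called gene was Smc4, at 154, 125 and 186 CPM with PBS + vehicle, 167, 186 and 162 with PBS + NVP, 78.0, 92.7 and 104 with bleomycin + vehicle and 139, 167 and 162 with bleomycin + NVP. The bleomycin + vehicle libraries lay below the other 9. Smc4 fell against PBS + vehicle, with a log2 change of -0.74 ± 0.16 (SE, adjusted p = 0.0233 by edgeR), where 4.01% of 9271 tested genes were called, and rose with the inhibitor, with a log2 change of 0.76 ± 0.17 (SE, adjusted p = 0.0209 by edgeR), where 5.26% were. The fall lost its call without PBS + vehicle replicate 3 (adjusted p = 0.0975) or bleomycin + vehicle replicate 2 (0.0677) or with only the compared libraries in the fit (0.103), and the rise without bleomycin + vehicle replicate 2 (0.0623) or bleomycin + NVP replicate 2 (0.0726) or 3 (0.0902). Smc4, the gene with the most UMIs, thus had the opposite sign to Mcm6 (0.92), Ect2 (0.59) and Diaph3 (0.53), none of which was called. The other tested gene, Smc2, was negative as Smc4 was, and was not called. In UMIs, untested, Mki67 gave 2, 0 and 2 with PBS + vehicle, 2, 0 and 4 with PBS + NVP, 1, 2 and 13 with bleomycin + vehicle and 1, 0 and 0 with bleomycin + NVP. Top2a gave 1, 0 and 0, then 3, 0 and 0, then 1, 1 and 8, then 0, 1 and 1 in the same order. All UMIs of the class numbered 8497506, 10846601, 16080280 and 4604333 in these groups, and the counts of both genes are not scaled to them. In PBS + vehicle 83.1% of alveolar type I nuclei came from 1 cluster that held at least 97.9% of the class in the other groups.

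In interstitial macrophages or monocytes, where bleomycin + NVP replicate 1 had too few nuclei to enter, and in T or NK lymphocytes, with 7 libraries, Smc4 and Diaph3 were tested and not called. Between the vehicle groups 0.223% and 5.52% of all tested genes were called in these classes, and with the inhibitor 0% and 0.2%. Diaph3 in interstitial macrophages or monocytes had a log2 change of 2.42 ± 0.60 (SE, adjusted p = 0.431 by edgeR) with the inhibitor. Mki67 and Top2a did not pass the filter in either class. In interstitial macrophages or monocytes Mki67 gave 4, 2 and 0 UMIs with PBS + vehicle, 1, 7 and 0 with PBS + NVP, 1, 1 and 12 with bleomycin + vehicle and 1 and 3 in replicates 2 and 3 of bleomycin + NVP. Top2a gave 10, 0 and 0, then 0, 4 and 0, then 0, 7 and 17, then 1 and 6. Over all libraries of these groups the class held 487249, 705350, 2719946 and 194613 UMIs, and the counts of both genes are not scaled to them. In T or NK lymphocytes Mki67 gave 5 and 0 UMIs in replicates 1 and 2 of PBS + vehicle, 0 and 1 in replicates 2 and 3 of bleomycin + vehicle and 0 in the 3 libraries tested with NVP, and Top2a gave 7 and 0, then 2 and 1, then 0. These counts too are not scaled to the UMIs of the class.

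**Figure D5:**
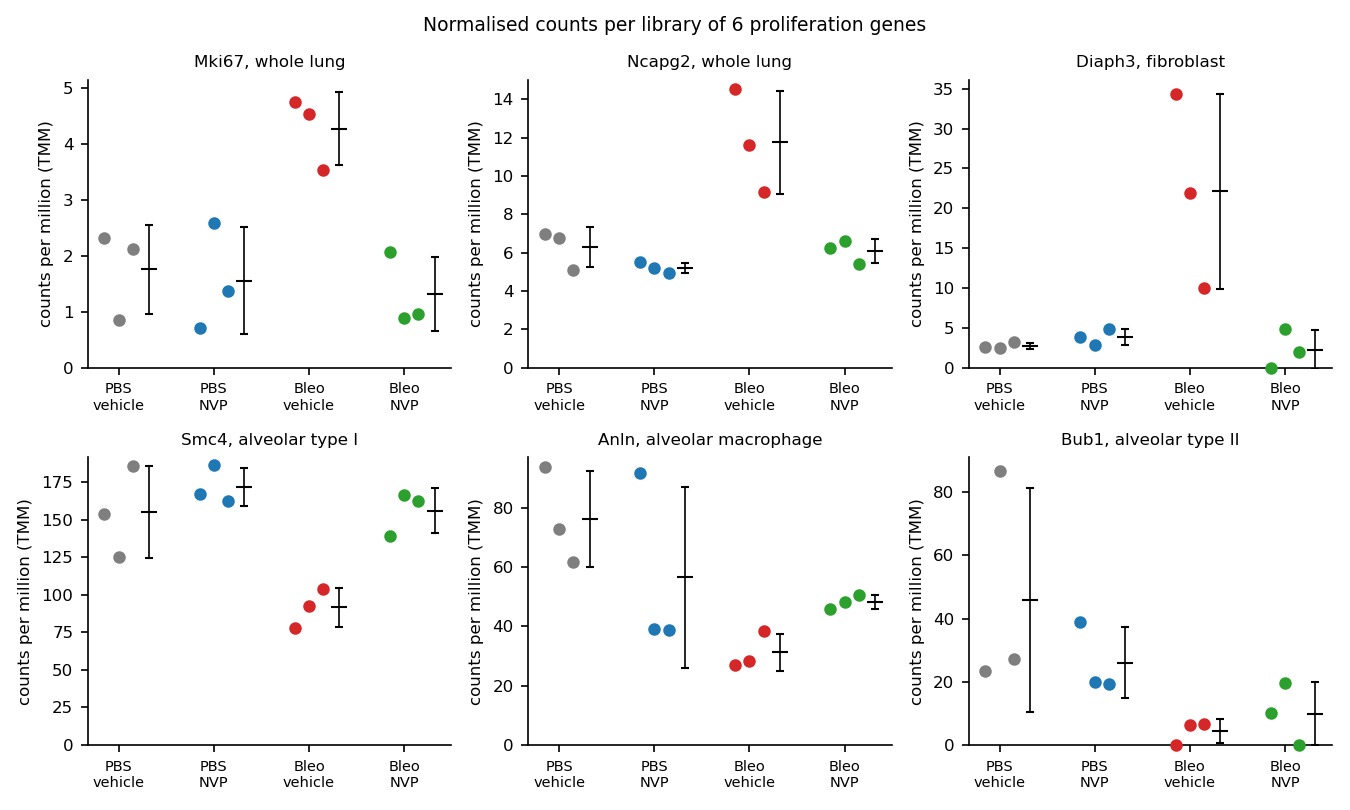
Normalised counts per 1000000 (CPM, vertical axes, linear from 0) of 6 proliferation genes, 1 point per library, with mean ± SD over 3 libraries in black and an SD bar that would pass below 0 ending there. Mki67 and Ncapg2 in whole lung and Diaph3 in fibroblasts are highest with bleomycin + vehicle, and Smc4 in alveolar type I, Anln in alveolar macrophages and Bub1 in alveolar type II are lower there than with PBS + vehicle.

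Genes of the cycle outside the list were read from lists set alongside it. In whole lung, against PBS + vehicle, where 2.56% of all tested genes were called, 2 of 35 tested S phase genes rose, Dtl, which targets replication licensing factors for degradation (log2 change 1.60, edgeR adjusted p = 0.0461), and Rrm1, the partner of Rrm2 (0.86, 0.0410). Of 23 tested mitotic genes, Ckap2, a microtubule-associated protein, rose (2.92, 0.0291), and none of 27 control genes was called. The list medians were 0.30, 0.39 and 0.16 against 0.01 over all tested genes. With the inhibitor in injured lung, where 5.59% of all tested genes were called, 3 of 35 S phase genes, 1 of 23 mitotic genes and 1 of 27 control genes were called, the last 2 shares below that of all tested genes. These were Dtl (-1.56, 0.0424), Rrm1 (-0.85, 0.0307), Brca1 (-1.40, 0.0249), the mitotic gene Ncapd2, a condensin I subunit (-1.12, 0.0425), and the CDK inhibitor Cdkn1a, which halts the cycle (-1.89, 0.0240), and all 5 fell. The medians were -0.41, -0.46 and -0.44. Within classes, the cyclin gene Ccnd1, which starts the cycle, rose in fibroblasts after injury (2.32, 0.0456) and fell with the inhibitor (-2.61, 0.0410), and in alveolar type I it rose after injury (2.50, 0.0339). Alveolar type I nuclei also had Rrm1 higher after injury (1.56, 0.0143) and lower with the inhibitor (-1.93, 0.00671), as was the transcription factor gene E2f3 (1.64, 0.00646, and -1.11, 0.0309), while Ccnd2, another D-type cyclin, fell after injury (-0.94, 0.0213) and rose with the inhibitor (0.90, 0.0233). In alveolar macrophages Hjurp, the chaperone of centromeric histone, fell after injury (-1.05, 0.00928). Against PBS + vehicle, 1 of 19 tested control genes was called in fibroblasts, below the 5.54% of all tested genes. In alveolar type I, 2 of 22 control genes were higher and 1 lower, where 4.01% of all tested genes were called. There 1 of 16 S phase genes was called too. In alveolar macrophages 1 of 9 mitotic genes was called and none of 16 control or 14 S phase genes, where 7.94% were. Further calls with the inhibitor were Cdk6 (-0.98, 0.0466) and Cdkn2b (-1.21, 0.0475) in alveolar type I and Btg2 (-1.68, 0.0351) and Cbx5 (0.63, 0.0363) in alveolar type II. With the inhibitor, 1 of 19 tested control genes was called in fibroblasts, below the 8.28% of all tested genes. In alveolar type I, 1 of 22 control genes was higher and 3 lower, and 1 of 16 S phase genes was called, where 5.26% were. In alveolar type II, 1 of 15 control genes and 1 of 8 mitotic genes were called, where 5.08% were. All values in parentheses are log2 changes followed by edgeR adjusted p, and the comparisons with and without the inhibitor share the bleomycin + vehicle libraries.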

How the data were processed

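Single-nucleus RNA-seq of 12 snap-frozen mouse lungs was read from the deposited matrices of UMI counts per gene and barcode, which per the labels and file headers the authors made with Cell Ranger (7.0 in the submitters' processing notes, 7.2.0 in the file header) on mm10, before work in Seurat 4.4.1. Here nuclei with 200 to 6000 genes and at most 5% mitochondrial UMIs were kept, likely doublets were removed per library by Scrublet score at a rate of 0.8% per 1000 barcodes (2708 nuclei, 5.72%), and the rest were clustered in scanpy 1.11.5 without cell cycle genes (2000 variable genes, 30 components, Harmony, 20 neighbours, Leiden resolution 1). The 33 clusters were named from marker lists when at least 3 markers were over 2-fold higher, giving 17 classes, and 961 nuclei stayed unnamed. A fibroblast cluster held 42.0% to 55.1% of that class in each group, and the other fibroblasts fell in further clusters.

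Shares of nuclei with at least 3 UMIs over the 39 genes were taken after random thinning to 1000 UMIs and were given no test. Counts were summed per library, over all kept nuclei and per class with at least 20 nuclei, and tested with edgeR 4.0.16 (TMM, filterByExpr, quasi-likelihood, all groups in 1 fit, Benjamini-Hochberg over all tested genes, threshold 0.05) in R 4.3.3. DESeq2 1.42.0, other filters and scalings, a replicate block and leaving out each library were alternatives. Intervals and the limits set by counts of 0 (3 counts) cover counting error only. The scripts were tested on simulated data. The genes, the other lists of 113 cell cycle genes and the split into 29 and 10 genes were chosen with earlier results of these data known. Genes called in a comparison were named, with Mki67 and Top2a in every comparison, and up to 3 called genes of each other list. Same-numbered PBS + vehicle and PBS + NVP libraries deviated together (correlations of 0.740, 0.392 and 0.506). By the labels these same-numbered libraries shared a run, apart from replicate 3. Their numbers were taken as pairs only in the replicate block, and the main edgeR tests did not pair libraries. In the other comparisons libraries shared only a number. The dose of NVP-BHG712 is not reported here.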

Additional observations from a re-analysis of the deposited data

Results flagged for a closer look

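Nuclei outside the comparisons also held proliferation genes, and both sets stood apart for that reason. Of 96 nuclei with more than 6000 genes, 24 (25%, 95% Wilson interval 17.4% to 34.5%) held at least 3 different restricted genes, against 0.773% of kept nuclei, and 23 of those 24 came from bleomycin + vehicle, which gave 87 of the 96. Their median depth was 37154 UMIs. Of the 2708 nuclei removed as likely doublets, 57 (2.10%, interval 1.63% to 2.72%) did so. Bleomycin + vehicle gave 44 of these 57, and 1807 of the 2708, whose median depth was 6361 UMIs. Both sets were deeper than kept nuclei, and the part of depth in these shares was not tested. Of 1739 nuclei over the mitochondrial limit, 3 (0.173%) met the criterion.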

How the results depend on the processing

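Counts of genes called were the least stable results. Between the vehicle groups in whole lung the count of 0 became 3 with DESeq2 and 1 with the replicate block (Ncapg2). With the inhibitor in injured lung the count of 1 became 3 with DESeq2, 2 with the replicate block (Ncapg2 and Smc2), and 0 without the low-count filter, with only the compared libraries, or at 500 UMIs and 1% mitochondrial. Without the low-count filter the counts between the vehicle groups were 4 in fibroblasts, 9 in general capillary, 2 in alveolar macrophages and 2 in alveolar type I, and with the inhibitor 3 in fibroblasts, 2 in general capillary and 2 in interstitial macrophages or monocytes. With the replicate block the inhibitor gave 2 in fibroblasts and 1 in general capillary (Diaph3), and the block, whose numbers were taken as pairs only in the PBS comparison, changed no call there. Fitting only the compared libraries left 0 in alveolar type II and alveolar type I (vehicle groups) and 0 in fibroblasts (inhibitor). Clusters built with cell cycle genes gave 1 in general capillary (inhibitor) and 0 in alveolar macrophages, where no batch correction also gave 0. Calls in the other cell cycle lists, 8 in whole lung, became 4 without the filter, 18 with the block, 19 with DESeq2, 3 at the stricter nucleus limits and 1 with only the compared libraries. The cause of these changes was not tested.

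The difference in thinned shares between the vehicle groups, 0.607 percentage points, reversed to -3.13 without thinning and was 0.285 at 500 UMIs, 1.34 at 2000, 1.24 at a threshold of 2 UMIs, 0.341 at 5, and 0.237 with 29 genes. With the inhibitor, -0.636 reversed to 0.564 without thinning and was -0.213 at 500 UMIs, -0.970 and -0.318 at thresholds of 2 and 5, -0.240 with 29 genes, -0.427 with doublets kept and -0.297 at the stricter nucleus limits. Among alternatives chosen after seeing the data, 29 genes without thinning gave -0.293 (reversed) between the vehicle groups, -0.492 for NVP in PBS lungs and -0.352 for bleomycin under NVP, and at least 3 different genes gave 0.331 and -0.441 unthinned and 0.260 and -0.194 thinned for the vehicle groups and the inhibitor. NVP in PBS lungs gave -1.69 without thinning and 0.0806 without the upper gene limit, and bleomycin under NVP gave -0.876 without thinning and 0.698 at 2000 UMIs.

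Counts of genes with no overlap were also recomputed after seeing the data, with other limits on nuclei applied on library totals. Between the vehicle groups 21 higher became 10 at the stricter nucleus limits. The single gene higher with the inhibitor became 0 with library totals, at the stricter limits and without the upper gene limit. The single gene lower with NVP in PBS lungs, and the single gene higher with bleomycin under NVP, became 0 with library totals, with doublets kept, at the stricter limits and without the upper limit, where the count lower for bleomycin under NVP became 3.

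With 1 library left out, calls in whole lung ranged from 0 to 2 in both comparisons with bleomycin + vehicle, in fibroblasts from 1 to 2 and (inhibitor) 0 to 2, in alveolar macrophages from 0 to 2, in general capillary, alveolar type I and alveolar type II from 0 to 1, and in the other lists from 0 to 21. The share differences ranged from 0.491 to 0.754 (vehicle groups), -0.706 to -0.520 (inhibitor), -0.362 to -0.0550 (NVP in PBS lungs) and 0.0568 to 0.333 (bleomycin under NVP). Genes with no overlap numbered 21 to 26 higher and 1 to 2 lower between the vehicle groups, 18 to 21 lower and 1 to 2 higher with the inhibitor, 0 to 2 higher and 1 to 5 lower for NVP in PBS lungs, and 2 to 4 higher and 2 to 6 lower for bleomycin under NVP. Among single genes, Top2a for bleomycin under NVP (0.02) reversed to -0.0245 without the filter and -0.0510 with the block, and with 1 library left out it ranged from -0.95 to 0.50. Mki67 there ranged from -0.71 to 0.39, and for NVP in PBS lungs Mki67 ranged from -0.93 to 0.15 and Top2a from -0.85 to 0.35. No cluster was led by cell cycle genes, so leaving such clusters unnamed gave no value.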
